A study of Danio rerio with 8 samples.

Results

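The genes described here are fkbp5 and 6 others that carry, sense, inactivate or answer to the glucocorticoid signal: nr3c1, nr3c2, tsc22d3, klf9, hsd11b2 and pck1. They were taken by gene symbol, 7 of the 25309 entries in the deposited tables, and the set was selected on the level of fkbp5 in injured and uninjured wild-type cord, where its rise was among the largest. They were followed in 8 RNA-seq libraries of zebrafish (Danio rerio) spinal cord, 2 in each of 4 groups: wild-type fish and mstnb mutants (mstnb -/-), each either uninjured or 1 week post injury (1 wpi). The injury was a complete transection of the cord under MS-222 anaesthesia, and the tissue was 2 mm of cord. At 1 wpi this held the lesion with the adjoining rostral and caudal cord, and in uninjured fish it was taken 4 mm caudal to the brainstem. Fish were of both sexes and 3 to 9 months old. mstnb encodes a myostatin, a secreted TGF-beta family factor known for limiting muscle growth. No group is labelled as sham-operated, so surgery and anaesthesia cannot be told apart from the lesion itself. The labels do not say how many fish each library holds, so p-values measure the spread between libraries, which may be technical. One column of injured wild type has the number 3, found in no label; its name gives the group, and it appears below as wild type 1 wpi 3.

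Cortisol is the main glucocorticoid of teleost fish, made by the interrenal gland under the hypothalamus and pituitary. It diffuses into cells and binds the glucocorticoid receptor, encoded by nr3c1, which is held in a binding-ready form by Hsp90 and its co-chaperones, enters the nucleus and switches target genes on or off. One of those targets, fkbp5, encodes the co-chaperone FKBP51, which lowers the receptor's hormone affinity and so closes a short feedback loop. In the mammalian nervous system FKBP5 is best known as a readout of stress hormone exposure.

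Depth ranged from 20082006 to 33409826 reads, and 1 read was worth 0.0498 CPM (a read count relative to the library's total) in the shallowest library. mstnb itself was at 48.8 and 74.8 CPM in uninjured and 45.2 and 42.2 CPM in injured wild type. Mutants had 10.2 and 26.4 CPM uninjured and 11.9 and 17.7 CPM injured, so that no mutant library reached the lowest wild-type value. The cord label was borne out by abundant oligodendrocyte and myelin transcripts (10 of 10 markers found, summed level 44329 to 134435 CPM). Transcripts of other tissues varied between libraries. Skeletal muscle markers (19 of 19 found) summed to 7518 to 27894 CPM in the 4 uninjured libraries and to 1529 to 3801 CPM in the 4 injured ones. Liver markers (17 of 17 found) were highest in wild type uninjured 1, at 5302 CPM against 32.0 to 481 CPM elsewhere. Oocyte markers (14 of 14 found) were highest in mutant 1 wpi 1 at 1589 CPM and wild type uninjured 1 at 1223 CPM, against 19.6 to 448 CPM elsewhere. Calls that were lost when both of these libraries were left out are named below. Levels are CPM, not scaled to gene length, so they are compared between libraries and never between genes.

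fkbp5 was strongly higher in the injured cord of both genotypes. In uninjured wild type it was at 17.8 and 34.3 CPM (mean 26.0 ± 11.7, SD, n = 2), and in injured wild type at 557 and 435 CPM (496 ± 86.2, SD, n = 2). In uninjured mutants it was at 41.2 and 56.2 CPM (48.7 ± 10.6, SD, n = 2), and in injured mutants at 530 and 593 CPM (561 ± 44.7, SD, n = 2). Every injured library lay far above every uninjured one, and the 2 injured groups overlapped each other while the 2 uninjured groups did not. The smallest of these values rested on 398 reads and the largest on 13454 reads. The ratio of group means was 19.1 in wild type and 11.5 in mutants.

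**Figure D1:**
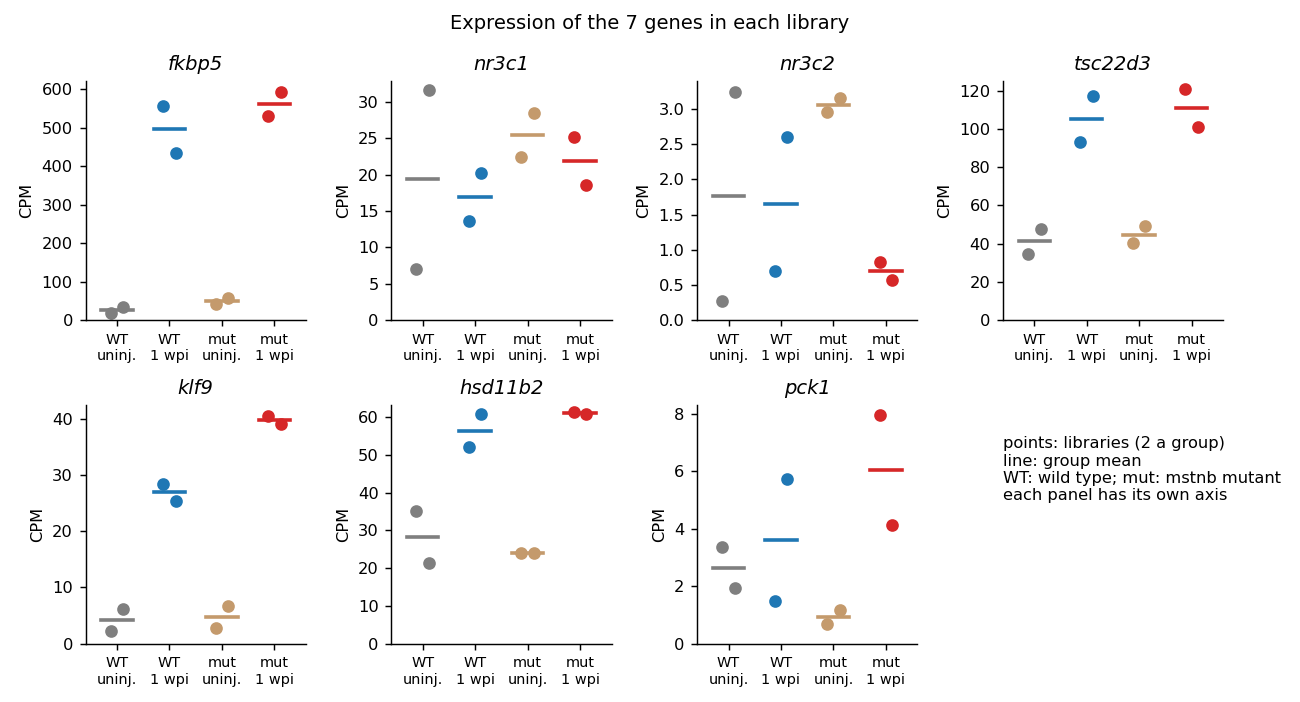
CPM of each of the 7 genes in each library, 1 panel a gene, with points for libraries (2 a group), horizontal lines for group means, and a separate linear axis starting at 0 in every panel (WT, wild type; mut, mstnb mutant; uninj., uninjured). fkbp5, tsc22d3, klf9 and hsd11b2 have both injured groups above both uninjured groups, whereas nr3c1 ranges from 7.05 to 31.7 CPM within uninjured wild type alone.

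Changes with injury are given as log2(CPM + 1) differences relative to the median change of the 19114 genes tested, and errors after them are limma standard errors (SE). This reference matters because the median gene was itself higher after injury, by 0.29 in wild type and 0.37 in mutants on the deposited scale, and by 0.05 and 0.01 with TMM-scaled CPM. Adjusted p-values are Benjamini-Hochberg over all 19114 genes, belong to the change before this reference is taken off, and count as called under 0.05. All 7 genes passed the filter on low values, which asks for a group mean of 1 CPM or more; nr3c2 and pck1 did so with few reads, as few as 6 and 23 in a library. fkbp5 was singled out for its rise in the wild-type injury comparison, so for the 7 genes that comparison is a description without a test. The mutant libraries are not part of it, and the injury comparison in mutants gives the test. That test is not fully independent. Its spread is pooled over all 8 libraries, wild type included, and the genes were chosen with earlier results of these data known.

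In mutants the fkbp5 rise was 3.15 ± 0.33 (SE, n = 2 a group) relative to the median gene, with an adjusted p of 0.000493 in limma. Only 57 of the 19114 genes had a larger change there. The 95% interval of the change ran from 2.42 to 3.87. The call was kept under all 16 alternatives tried, with changes of 3.07 to 3.29 and adjusted p from 1.50e-21 to 0.0218, including the 8 fits without 1 library. In wild type the corresponding change was 3.97 ± 0.33, the 4th largest of all genes tested. The authors' deposited table gives a wild-type log2 fold change of 3.91 for fkbp5. The authors' log2 fold changes, here and below, have no median change taken off.

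Of the 7 genes, 4 rose with injury in mutants and 0 fell, where 2.94% of all genes were called higher and 0.251% lower. In mutants 5 of the 7 had both injured libraries above both uninjured ones, a pattern held by 45.3% of all genes, and 1 had both below, held by 7.48%. In wild type 4 of the 7 had both injured libraries above, where 36.7% of all genes did, and 0 had both below, where 13% did. fkbp5 is among the genes counted as higher in both genotypes. The set was selected on its wild-type values, so the wild-type count describes the set and tests nothing. The 4 called genes were fkbp5, klf9, tsc22d3 and hsd11b2. pck1, also known as a glucocorticoid target, was not called. The part of glucocorticoid signalling in the 4 rises was not tested.

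klf9, which encodes a Krüppel-like transcription factor that responds to glucocorticoid and thyroid hormone, had the second largest rise. It was at 2.19 and 6.09 CPM in uninjured and 28.4 and 25.5 CPM in injured wild type. Mutants had 2.81 and 6.70 CPM uninjured and 40.6 and 39.1 CPM injured. The injured libraries of each genotype agreed closely, whereas both uninjured pairs differed by more than their injured pairs did, with a higher-to-lower ratio of 2.79 in wild type and 2.38 in mutants. The change in mutants was 2.55 ± 0.46 (SE; limma adjusted p = 0.00722), and in wild type it was 2.26 ± 0.46. The call in mutants was lost without mutant uninjured 1 (adjusted p = 0.114), mutant 1 wpi 1 (0.0990) or mutant 1 wpi 2 (0.0667). In both genotypes the uninjured library with the lower klf9 also had the lower sum of neuron markers (16 of 16 found; 7217 against 12316 CPM in wild type and 4640 against 13670 CPM in mutants), and the part of this in the klf9 difference was not tested. In bulk tissue, fewer cells of a type and less RNA per cell cannot be told apart.

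tsc22d3 encodes GILZ, a leucine zipper protein that in mammals carries part of the anti-inflammatory action of glucocorticoids. Its level was 34.8 and 47.8 CPM in uninjured and 93.0 and 117 CPM in injured wild type, and 40.1 and 49.2 CPM in uninjured and 121 and 101 CPM in injured mutants. All 4 injured libraries were above all 4 uninjured ones, and the genotypes overlapped at both stages. Relative to the median gene the change was 0.93 ± 0.29 (SE; limma adjusted p = 0.0353) in mutants and 1.05 ± 0.29 in wild type. The mutant call was lost in 9 of 16 alternatives, among them TMM-scaled CPM (adjusted p = 0.133), edgeR (0.165) and each fit without an injured wild-type or any mutant library (0.0552 to 0.399). Among the 3 genes of the TSC22 family that were tested, tsc22d3 was the 1 called in mutants, where 2.94% of all genes were called higher. tsc22d1 changed by 0.04 ± 0.33 (adjusted p = 0.558).

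hsd11b2 encodes the enzyme that turns active cortisol into inactive cortisone. It stood at 35.2 and 21.4 CPM in uninjured and 52.0 and 60.8 CPM in injured wild type. Mutants had 24.0 and 24.1 CPM uninjured and 61.2 and 60.7 CPM injured. Both mutant pairs were nearly identical, and each injured pair was above each uninjured pair. The mutant change was 0.94 ± 0.31 (SE; limma adjusted p = 0.0447), close to the threshold, and the wild-type change was 0.72 ± 0.31. The call was lost in 11 of 16 alternatives, among them TMM-scaled CPM (0.285), edgeR (0.347), DESeq2 (0.272) and each fit without an injured wild-type or any mutant library (0.0797 to 0.368). Among 15 tested genes of cortisol metabolism and carriage it was the 1 gene called in mutants, where 2.94% of all genes were called higher. In wild type, where limma called 2.9% of all genes higher and 0.952% lower, 0 of the other 14 were called in limma or edgeR. The smallest limma p there was that of hsd20b2, which reduces cortisone further (1.09 ± 0.40, adjusted p = 0.0820, from 0 and 0.123 to 1.99 and 1.54 CPM), and DESeq2 called it higher (adjusted p = 0.00629). These hsd20b2 values rested on 0 and 3 reads uninjured and 40 and 32 reads injured. The gene met the filter on low values only through the injured groups. The median relative change of those 14 was -0.33 in mutants and -0.27 in wild type.

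pck1, which encodes the rate-limiting gluconeogenic enzyme phosphoenolpyruvate carboxykinase, a classic hepatic glucocorticoid target, was scarce in every library. It was at 3.35 and 1.93 CPM in uninjured and 1.49 and 5.73 CPM in injured wild type. Mutants had 0.688 and 1.16 CPM uninjured and 7.95 and 4.14 CPM injured. The wild-type groups overlapped and the mutant groups did not. The mutant change of 1.46 ± 0.53 (SE) did not pass in limma (adjusted p = 0.0889), and the wild-type change was -0.09 ± 0.53. It passed in 5 of 16 alternatives, among them DESeq2 (0.0483), the fit to the 2 mutant groups alone (0.0198) and the fits without wild type uninjured 1 (0.0356) or wild type uninjured 2 (0.0398). Liver marker sums were 481 and 73.2 CPM in uninjured mutants and 40.4 and 32.0 CPM in injured mutants; the part of liver tissue in the pck1 values was not tested. Without both egg-rich libraries the mutant change was 1.01 (adjusted p = 0.308). In the gluconeogenesis list, 1 of 16 tested genes rose in mutants, where 2.94% of all genes were called higher. It was foxo1a, which encodes a transcription factor of the fasting response (1.27 ± 0.33, adjusted p = 0.0223).

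**Figure D2:**
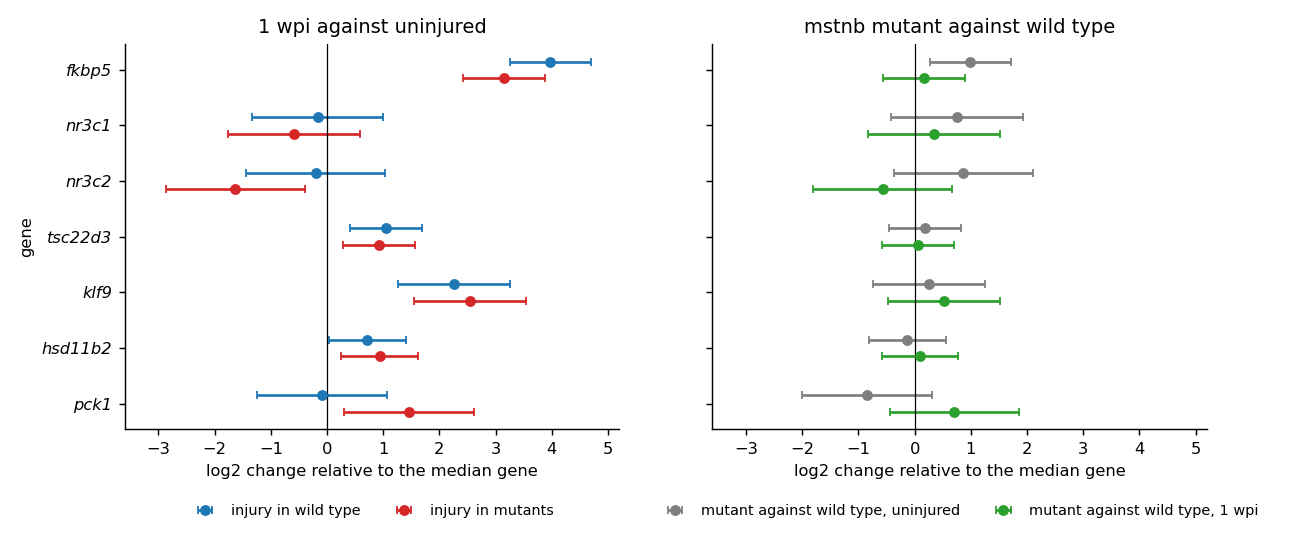
Log2 change of each of the 7 genes relative to the median gene, with limma 95% intervals, for injury in each genotype (left) and for mutant against wild type at each stage (right). fkbp5 and klf9 lie furthest to the right for injury in both genotypes, at 2.26 to 3.97, and the right panel holds no change that passed the test.

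The receptors themselves did not pass the test with injury. nr3c1, the glucocorticoid receptor, was at 7.05 and 31.7 CPM in uninjured and 13.6 and 20.3 CPM in injured wild type. Mutants had 22.5 and 28.5 CPM uninjured and 25.3 and 18.6 CPM injured. The groups overlapped in both genotypes, and the widest gap was between the 2 uninjured wild-type libraries, which differed 4.49 times. The change was -0.58 ± 0.54 (SE; limma adjusted p = 0.869) in mutants, with a 95% interval from -1.75 to 0.59, and -0.17 ± 0.54 in wild type. The wild-type value went to -1.01 without wild type uninjured 1 and to 0.70 without wild type uninjured 2. The library with the lowest nr3c1 was also the one richest in skeletal muscle and liver markers (27894 and 5302 CPM), and the part of those tissues in its value was not tested.

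nr3c2 encodes the mineralocorticoid receptor, which in fish also binds cortisol. It was at 0.268 and 3.25 CPM in uninjured and 0.697 and 2.60 CPM in injured wild type, resting on 6, 79, 14 and 54 reads. In mutants it was at 2.96 and 3.15 CPM when uninjured and 0.822 and 0.573 CPM when injured, resting on 99, 79, 18 and 13 reads. The mutant groups did not overlap, with both injured libraries lower, and the wild-type groups did. The mutant change was -1.63 ± 0.57 (SE; limma adjusted p = 0.277) and did not pass under any of the 16 alternatives, where adjusted p ranged from 0.0843 to 0.770. Like nr3c1, nr3c2 was lowest in wild type uninjured 1. In the receptor family of nr3c1, nr3c2, ar and pgr, 0 of 4 genes were called in limma, edgeR or DESeq2 in either genotype. The smallest wild-type p was that of pgr (0.55 ± 0.52, adjusted p = 0.400). In mutants nr3c2 was the 1 of the 4 with an unadjusted limma p under 0.05, at 0.0463. Among all 19114 genes tested, 3328 had an unadjusted limma p under 0.05 for injury in mutants.

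Receptor-associated chaperones and co-regulators (34 of 34 found genes tested) had 2 called higher, 1 of them fkbp5, and 1 lower in mutants. Among all genes 2.94% were called higher there and 0.251% lower. The median relative change was -0.15 over the 33 genes other than fkbp5. hspa8, the constitutive Hsc70 that loads client receptors, rose from 589 and 893 to 1703 and 1905 CPM in mutants (0.94 ± 0.32, adjusted p = 0.0478), a call lost with TMM-scaled CPM (0.225). hsp90aa1.1, known in zebrafish as the Hsp90 of skeletal muscle, fell from 25.4 and 29.5 to 3.01 and 5.15 CPM (-2.88 ± 0.43, adjusted p = 0.0108). The skeletal muscle marker sum was lower alongside it, from 14510 and 15407 to 3465 and 3801 CPM, and its part in the result was not tested. fkbp4, which encodes FKBP52, the co-chaperone that competes with FKBP51 for the receptor complex, was at 127 and 179 CPM in uninjured and 144 and 138 CPM in injured mutants (-0.47 ± 0.27, adjusted p = 0.877), with overlapping groups. It was picked for its known relation to fkbp5 after its values had been seen. Of 16 tested FKBP family genes, fkbp5, on which the set was selected, and fkbp1ab were called higher in mutants and 0 lower. The shares of all genes are the same 2.94% and 0.251%. fkbp1ab, an FKBP12 gene, went from 4.22 and 5.39 to 23.4 and 20.6 CPM (1.63 ± 0.35, adjusted p = 0.0128). In wild type hspa8 (1.33 ± 0.32, adjusted p = 0.0177), the chromatin remodeller gene smarca4a (1.24 ± 0.35, 0.0328), fkbp1ab (4.55 and 6.05 to 19.5 and 21.8 CPM, 0.0177) and fkbp9 (1.68 ± 0.39, 0.0172) were called higher and hsp90aa1.1 lower (-2.30 ± 0.43, 0.0238). The shares of all genes in wild type were 2.9% higher and 0.952% lower.

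Genes of the hypothalamic, pituitary and interrenal axis and of corticosteroid synthesis gave 1 higher call among 15 tested in mutants. Among all genes 2.94% were called higher there. The gene called was crhbp, whose product binds and holds back corticotropin-releasing hormone. Its level went from 28.2 and 28.1 to 93.9 and 90.1 CPM in mutants (1.31 ± 0.27, adjusted p = 0.00830; 0.0713 with TMM-scaled CPM and 0.106 in edgeR), and was 50.0 and 42.5 against 86.3 and 79.6 CPM in wild type (0.55 ± 0.27, adjusted p = 0.119). In wild type, where 2.9% of all genes were called higher and 0.952% lower, the 1 call was cyp11a1, a side-chain cleavage enzyme gene. It was lower (-2.84 ± 0.54, adjusted p = 0.0237). Its values of 8.79 and 2.67 CPM in uninjured and 0.0498 and 0 CPM in injured wild type moved with the oocyte marker sums, which were 1223 and 216 CPM against 19.6 and 20.7 CPM, and the call was lost without wild type uninjured 1, either injured wild-type library or either uninjured mutant library. Markers of the steroid-making interrenal gland summed to 2.09 to 7.41 CPM over 7 of 9 markers found. star was at 0 in 1 library and mc2r, the corticotropin receptor gene, at 0 in 3. cyp17a1, hsd3b1, nr5a1a, cyp11c1 and fdx1b had reads in every library, cyp17a1 at 0.846 to 4.46 CPM.

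A list of 66 genes known as glucocorticoid targets in vertebrates was also examined, of which 59 were found and 57 were tested. In mutants 15 rose and 0 fell, or 26.3%, against 2.94% of all genes called higher. Leaving out the 5 of the 7 genes that are on the list, 11 of 52 rose (21.2%), 42 of 52 had both injured libraries above both uninjured ones (80.8%, against 45.3% of all genes), and the median relative change was 0.60. In wild type 8 of those 52 were called higher (15.4%, against 2.9% of all genes) and 1 lower (0.952% of all genes), and the median was 0.40. The list was written with earlier results of these data known, so these counts describe it and are not independent evidence.

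Next to fkbp5 and klf9, the largest rises on the list in mutants were in socs3a and ddit4. socs3a, a suppressor of cytokine signalling that inflammatory signals also raise, went from 9.88 and 14.9 to 142 and 124 CPM in mutants (2.97 ± 0.37, adjusted p = 0.00100), and from 25.5 and 39.3 to 96.6 and 190 CPM in wild type (1.78 ± 0.37, adjusted p = 0.0118). ddit4, which encodes the mTORC1 inhibitor REDD1, went from 1.98 and 2.99 to 25.6 and 21.0 CPM in mutants (2.44 ± 0.38, adjusted p = 0.00308), and from 2.86 and 4.44 to 17.7 and 18.2 CPM in wild type (1.76 ± 0.38, adjusted p = 0.0132). Both injured groups lay above both uninjured groups for each of these genes. klf13, a relative of klf9, rose by 2.18 ± 0.49 in mutants (adjusted p = 0.0181) and by 1.86 ± 0.49 in wild type (0.0311). angptl4, an inhibitor of lipoprotein lipase, rose by 1.32 ± 0.41 in mutants (0.0460) and by 1.79 ± 0.41 in wild type (0.0175). tat, the liver tyrosine aminotransferase, met the filter on low values only through uninjured wild type. Its mean there was 6.69 CPM, against 0.465 to 0.888 CPM in the other groups. It was the 1 gene lower in wild type, from 9.55 and 3.83 to 0.498 and 0.433 CPM (-2.57 ± 0.46, adjusted p = 0.0185). Liver marker sums in the same libraries were 5302 and 171.5 CPM against 32.2 and 124 CPM, and the tat call was lost without wild type uninjured 1 or either injured wild-type library.

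Other genes on the list that are widely used as glucocorticoid readouts, picked here after their values were seen, did not pass. sgk1, a kinase that regulates sodium transport, was at 46.8 and 68.4 CPM in uninjured and 123 and 116 CPM in injured mutants (0.70 ± 0.29, adjusted p = 0.0736). The clock gene per1a was at 2.54 and 4.19 against 8.45 and 10.1 CPM (0.89 ± 0.43, adjusted p = 0.147). dusp1, a phosphatase that dampens MAP kinases, was at 9.37 and 18.6 against 23.1 and 31.2 CPM (0.60 ± 0.37, adjusted p = 0.202). In each both injured mutant libraries lay above both uninjured ones, a pattern held by 45.3% of all genes. In wild type sgk1 went from 57.3 and 74.3 to 129 and 113 CPM, and per1a from 6.29 and 3.00 to 8.37 and 7.60 CPM. dusp1 overlapped there, at 23.3 and 26.5 CPM uninjured and 20.3 and 26.2 CPM injured.

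The length of this list of calls depended on the fit. With TMM-scaled CPM 6 of 57 were called higher in mutants, against 0.963% of all genes, and in edgeR 4, against 0.691%. Every one of the 8 libraries moved the count when left out, and the share of all genes called higher moved in the same direction. Without mutant uninjured 2 that share moved little beside the count. The count went to 31 and 30 without wild type uninjured 1 and 2 (8.36% and 8.06% of all genes) and to 7 without wild type 1 wpi 1 or 3 (1.12% and 1.13%). It went to 2 and 8 without mutant uninjured 1 and 2 (0.275% and 2.39%), and to 2 and 3 without mutant 1 wpi 1 and 2 (0.270% and 0.381%). Without both egg-rich libraries named above, the mutant count was 8 (1.54% of all genes). fkbp5 and socs3a kept their mutant calls in all 16 alternatives. That of angptl4 was lost with TMM-scaled CPM, without the filter on low values, in edgeR and in DESeq2. Those of foxo1a and hspa8 were lost with TMM-scaled CPM and in edgeR, and that of klf13 in edgeR. With a pseudocount of 0.25 and without the filter, hspa8 and klf11a also lost theirs. The mutant call of ddit4 was lost without mutant uninjured 1 or mutant 1 wpi 1, and those of klf13, fkbp1ab and crhbp without either of these or mutant 1 wpi 2. That of hsp90aa1.1 was lost without any 1 mutant library, those of angptl4, hspa8, klf1 and klf11a without any 1 mutant or injured wild-type library, and that of foxo1a likewise except for mutant uninjured 2. In wild type the 8 of 52 became 24 without wild type uninjured 2 (15.5% of all genes called higher), 1 without wild type 1 wpi 1 or 3 (0.248% and 0.225%), 5 without mutant 1 wpi 1 or 2 (1.40% and 1.39%) and 4 without both egg-rich libraries (1.17%). There the socs3a call was lost without wild type 1 wpi 3, the angptl4 call without wild type 1 wpi 1, the ddit4 call without either, and the klf13 call without either, without wild type uninjured 1 or without either injured mutant library. Without both egg-rich libraries, the mutant calls of tsc22d3 (adjusted p = 0.152), hsd11b2 (0.119), angptl4, fkbp1ab, hspa8, klf1 and klf11a were lost, and so were the wild-type calls of socs3a, ddit4, klf13, tat, cyp11a1, hspa8, hsp90aa1.1, smarca4a, fkbp1ab and fkbp9. With only the 2 wild-type groups in the fit, 0 of 51 list genes other than the 7 were called higher in limma (0.401% of all genes), and the wild-type calls of the other lists named here were lost too.

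**Figure D3:**
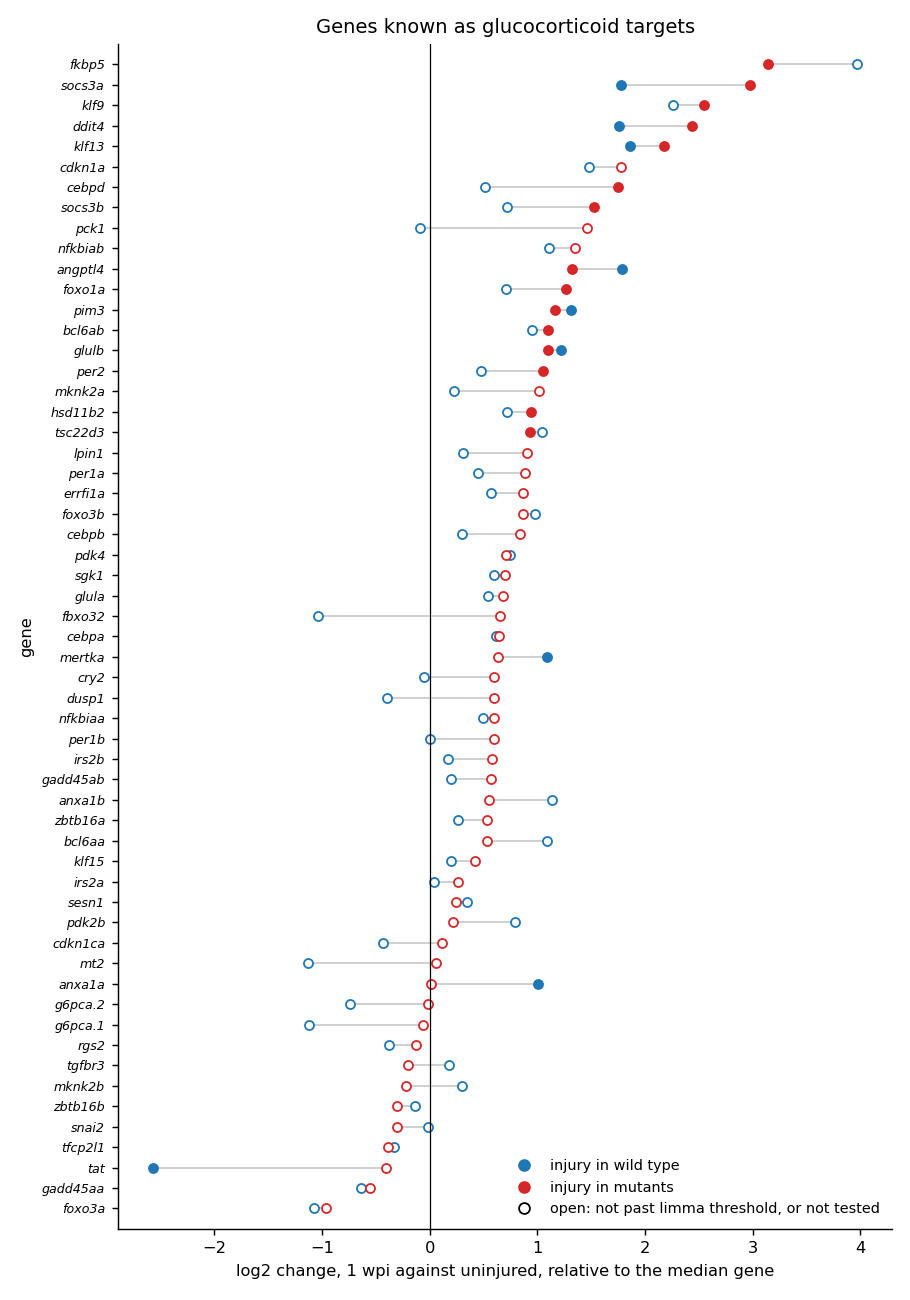
Log2 change with injury relative to the median gene for the 57 tested genes known as glucocorticoid targets, ordered by the change in mutants (red) with wild type in blue; filled points passed limma, and open points did not or, for genes described without a test, were not tested. Most points lie right of 0, and fkbp5 is furthest right in both genotypes.

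In the Krüppel-like family, klf9 and klf13 were called higher and klf1 and klf11a lower in mutants among 16 tested. Among all genes 2.94% were called higher there and 0.251% lower. klf1, the erythroid factor, went from 18.7 and 19.0 to 3.93 and 4.98 CPM (-2.24 ± 0.37, adjusted p = 0.0199). Erythrocyte marker sums (7 of 8 found) were lower in the same injured mutant libraries, from 7569 and 5514 to 743 and 751 CPM, and their part in the klf1 result was not tested. klf11a went from 22.5 and 34.4 to 10.05 and 8.24 CPM (-1.88 ± 0.37, adjusted p = 0.0472). In wild type klf9 lay at 2.26, klf13 passed as given above, and 0 were called lower. Of all genes 2.9% were called higher there and 0.952% lower. klf11a was at 9.15 and 14.1 CPM in uninjured and 11.3 and 11.9 CPM in injured wild-type cord (-0.26 ± 0.37, adjusted p = 0.98). The difference between genotypes for klf11a did not pass in limma (interaction -1.62 ± 0.52, adjusted p = 0.828) and did in DESeq2 (0.0139).

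No difference between genotypes passed the limma test for any of the 7 genes, at either stage. In uninjured cord fkbp5 was the 1 gene with both mutant libraries above both wild-type libraries, a pattern held by 7.42% of all genes, and pck1 was the 1 with both below, held by 15.7%. Both genotype comparisons use wild-type libraries on whose values fkbp5 was selected, so its values and p-values in them are descriptions, not tests. The fkbp5 difference was 0.99 ± 0.33 (SE) with a 95% interval from 0.27 to 1.72. It did not pass over all genes in limma (adjusted p = 0.969) or in DESeq2 on the recovered reads (0.115). Without wild type uninjured 2, the uninjured wild-type library with the higher fkbp5, the difference was 1.32. The authors' deposited table gives a log2 fold change of 0.99, without the median change taken off, and an adjusted p of 3.68e-17. The limma adjusted p also belongs to the change before the median is taken off, so that step does not separate these p-values. They come from different fits, and the reason for the gap was not tested. For pck1 the difference was -0.85 ± 0.53 (adjusted p = 0.982), where the authors' deposited table gives a log2 fold change of -1.46 with an adjusted p of 0.00343.

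The receptor differences in uninjured cord were 0.76 ± 0.54 for nr3c1 and 0.86 ± 0.57 for nr3c2 (limma adjusted p = 0.982 for both). Both turned on wild type uninjured 1: without it nr3c1 went to -0.09 and nr3c2 to 0.15, and without wild type uninjured 2 nr3c1 went to 1.64 and was called (adjusted p = 0.0309). The authors' deposited table gives log2 fold changes of 0.69 (adjusted p = 0.000392) and 1.49 (adjusted p = 0.0131) for the same genes. tsc22d3, klf9 and hsd11b2 differed by 0.18, 0.25 and -0.13, each within its SE. Over all genes 0% were called in limma and in edgeR for this comparison, with 852 and 1212 genes at an unadjusted p under 0.05, and DESeq2 called 84.

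In injured cord klf9 was the 1 gene of the 7 whose genotypes did not overlap, at 28.4 and 25.5 CPM in wild type and 40.6 and 39.1 CPM in mutants, and 20.1% of all genes were higher in this way and 15.6% lower. The difference was 0.53 ± 0.46 with a 95% interval from -0.47 to 1.53. fkbp5 differed by 0.17 ± 0.33, with an interval from -0.56 to 0.89. The other 5 lay between -0.57 for nr3c2 and 0.71 for pck1. All 7 had an adjusted p of 1.00 in limma, where 0.267% of all genes were called, and the authors' deposited table also has no adjusted p under 0.05 for them, with klf9 lowest at 0.0547.

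The interaction, the mutant injury change less the wild-type one, uses the libraries in which fkbp5 was noticed. It was -0.83 ± 0.47 for fkbp5, with a 95% interval from -1.86 to 0.19. For pck1 it was 1.55 ± 0.75, and for nr3c2 -1.44 ± 0.80. For nr3c1, tsc22d3, klf9 and hsd11b2 it lay between -0.42 and 0.27. None of the 7 passed in limma (adjusted p = 1.00 for each), where 0.565% of all genes were called. The fkbp5 means behind this value were 48.7 CPM in mutants and 26.0 CPM in wild type when uninjured, and 561 and 496 CPM when injured.

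Over the 162 tested genes of all lists, limma and edgeR called 0 in either genotype comparison or in the interaction; at an unadjusted limma p under 0.05 there were 13 in uninjured cord, 6 at 1 wpi and 11 in the interaction. DESeq2 called cyp11a1 and socs3a lower and klf11a higher in uninjured mutants (adjusted p = 0.00353, 0.0332 and 0.0111), and cyp11a1, hsd3b2 and crhb higher in injured mutants (0.0361, 0.00687 and 0.0371). In the interaction it called cyp11a1 and hsd3b2 higher and klf11a lower. Over all genes DESeq2 called 84 in uninjured cord, 148 at 1 wpi and 222 in the interaction. cyp11a1 moved with the oocyte sums given above. hsd3b2 was likewise highest in both egg-rich libraries, at 5.85 CPM in wild type uninjured 1 and 5.53 CPM in mutant 1 wpi 1. It was at 1.93 CPM in wild type uninjured 2 and 1.32 CPM in mutant 1 wpi 2. In injured wild type and uninjured mutants it was at 0 to 0.639 CPM. Both genes met the filter on low values only through uninjured wild type and injured mutants. The part of oocyte transcripts in the cyp11a1 and hsd3b2 calls was not tested. crhb was at 3.14 and 2.45 CPM in injured wild type and 7.12 and 13.1 CPM in injured mutants. Its values rested on 63, 51, 156 and 297 reads. For crhb at 1 wpi the authors' deposited table gives a log2 fold change of 1.79 with an adjusted p of 2.38e-07, whereas limma and edgeR did not call it. In limma the smallest p of the target list was that of tat in uninjured cord (-1.89 ± 0.46, adjusted p = 0.421) and in the interaction (2.16 ± 0.65, 0.448), and of the atrophy gene fbxo32 at 1 wpi (1.30 ± 0.45, 1.00). tat met the filter on low values only through uninjured wild type, which both of these comparisons use.

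The genes closest to fkbp5 across the 8 libraries, by Pearson r of log2(CPM + 1) among the 11875 other genes averaging 5 CPM or more, were eef1a1l1 and si:ch211-102c2.8 (r = 0.996 each), gpd1c and rpe65a (0.994 each), and csf1ra and eef2b (0.992 each). eef1a1l1 and eef2b encode translation elongation factors, gpd1c a glycerol-3-phosphate dehydrogenase, rpe65a a retinoid isomerase and csf1ra the macrophage colony-stimulating factor receptor. The lowest r belonged to mtbl at -0.992, the parvalbumin gene pvalb4 at -0.984 and gstr at -0.980. Among the 7 genes, r with fkbp5 was 0.976 for klf9, 0.972 for tsc22d3, 0.871 for hsd11b2, 0.531 for pck1, 0.125 for nr3c1 and -0.302 for nr3c2, and r between the receptors was 0.759. The libraries fall into an injured and an uninjured cluster, so these values mostly restate that split and carry no test. eef1a1l1 has close copies in the genome, and how reads were shared between such copies is not given in the sources used here.

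Marker sums of several other cell types moved with injury in the same direction as fkbp5. Macrophage and microglia markers (13 of 14 found) summed to 912 to 1290 CPM in uninjured and 13176 to 17812 CPM in injured libraries, most of it apoeb. Radial glia and ependymal markers (11 of 11 found) summed to 7251 to 8965 CPM in uninjured and 12806 to 14619 CPM in injured libraries. Most of this sum was gfap, fabp7a and glula, and glula is also on the glucocorticoid target list. Within it cyp19a1b went the other way, at 5.31 to 17.7 CPM in uninjured and 0.0498 to 1.05 CPM in injured libraries, and her4.1 and sox2 overlapped between stages. Fibroblast markers (10 of 10 found) summed to 352 to 557 CPM in uninjured and 827 to 1341 CPM in injured libraries. In none of these sums did the injured and uninjured libraries overlap. The part of these cell types in the fkbp5, klf9, tsc22d3 and hsd11b2 changes was not tested. Kidney tubule markers, relevant to hsd11b2 as a gene of salt-handling tissue, summed to 540 to 1134 CPM in uninjured and 806 to 1023 CPM in injured libraries over 10 of 10 markers found, and most of each sum was slc4a4a (458 to 1024 CPM). Of the other markers, slc12a1 was at 0 to 0.535 CPM and at 0 in 2 libraries. slc12a3 was at 1.44 to 7.05 CPM in uninjured and 0.228 to 1.32 CPM in injured libraries. atp1a1a.4 was at 6.58 to 65.5 CPM in uninjured and 1.15 to 9.33 CPM in injured libraries, and cdh17 at 2.06 to 20.8 and 2.56 to 5.24 CPM. In the opposite direction, slc20a1a was at 0.848 to 2.55 CPM in uninjured and 4.04 to 7.89 CPM in injured libraries. slc26a1 was at 1.35 to 4.51 and 3.93 to 7.01 CPM, and trpm7, pax2a and clcnk overlapped between stages. The part of kidney tissue in the hsd11b2 values was not tested.

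The mitochondrial share of reads and the summed level of the myelin markers ran the other way. The mitochondrial share, over 13 entries, was 7.13% to 10.2% in uninjured and 3.74% to 4.19% in injured libraries. The oligodendrocyte and myelin sum was 88904 to 134435 CPM in uninjured and 44329 to 50855 CPM in injured libraries. Most of this sum was mbpa, at 78682 to 123780 CPM in uninjured and 33531 to 38332 CPM in injured libraries. Most other markers on this list did not fall. plp1a, plp1b, cldnk, olig2, mag and cldn19 were higher in every injured library than in any uninjured one, and mbpb, mpz and sox10 overlapped between stages. Neither the mitochondrial share nor the myelin sum overlapped between stages, and their part in the changes of the 7 genes was not tested.

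**Figure D4:**
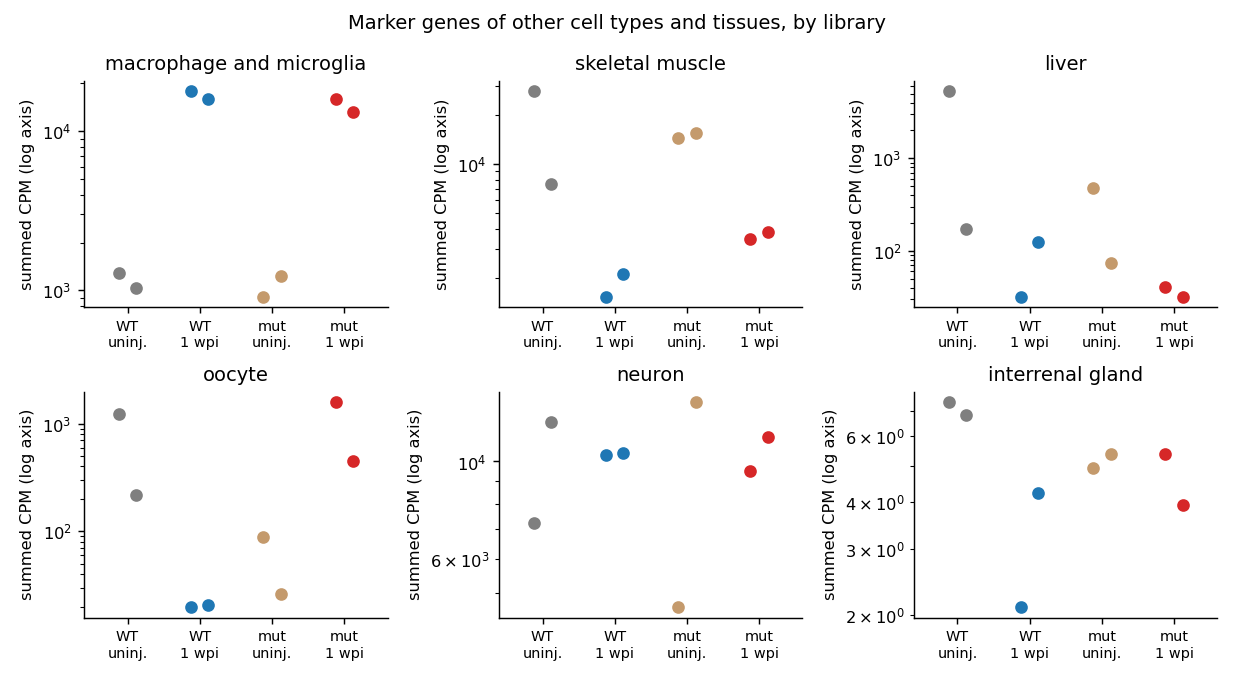
Summed CPM of marker genes of 6 cell types and tissues in each library, on log axes, with points for libraries (WT, wild type; mut, mstnb mutant; uninj., uninjured). Macrophage and microglia sums separate the injured libraries (13176 CPM and above) from the uninjured ones (1290 CPM and below), muscle sums run the other way, and liver and oocyte sums are highest in single libraries.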

How the data were processed

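The 4 tables deposited by the authors hold the same 8 columns of CPM for 25309 entries by gene symbol, which agreed between tables to a relative difference of 1.13e-08, and each holds one comparison by the authors: per the file headers, a mean normalized signal (baseMean), a log2 fold change, the standard error, a score named stat, p-values and adjusted p-values. CPM was read from the table of wild-type injury; dates stand in place of 16 symbols in 1 of the others, none of them a gene described here. Bowtie2, Cufflinks and Cuffdiff are named per the submitters' processing notes, with no role or version. Build, annotation, counter and strandedness: not given in the sources used here, so no coordinates are printed and overlapping, antisense or near-identical genes are uncertain. All CPM values (100%) were whole multiples of 1 read within 0.01 reads, which gave back counts per gene.

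In R 4.3.3, limma 3.58.1 with a trended prior was fitted to log2(CPM + 1) of all 8 libraries as 4 group means, leaving 4 residual degrees of freedom, for 19114 genes (group mean of 1 CPM or more in any group). The pseudocount understates changes of scarce genes. There were 5 comparisons: injury in each genotype, genotype at each stage, and their interaction, each called at a Benjamini-Hochberg adjusted p under 0.05. The design had allowed for counts or CPM, and its CPM form was followed. Alternatives were TMM-scaled CPM, a pseudocount of 0.25, no filter, edgeR 4.0.16 and DESeq2 1.42.0 on the recovered reads, only the groups compared, each library left out in turn, both libraries richest in egg transcripts left out, and a replicate block. The fit was tested on simulated data. In each comparison a list's genes were named when called, at most 4 a direction by size, so a gene may be named for 1 genotype and valued in both; where 0 were called, the gene of smallest p could be named. Genes outside this rule are said to be. The genes and lists were chosen with earlier results of these data known.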

Additional observations from a re-analysis of the deposited data

How the results depend on the processing

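The direction of the injury change in mutants was kept for all 7 genes in all 16 alternatives; of those 112 values, 23 lost and 5 gained a call. The count of genes called depended on the fit. Injury in wild type (737) gave 1707 in DESeq2, 110 with only the groups compared and 317 without the egg-rich libraries. Injury in mutants (610) gave 243 with TMM, 382 unfiltered, 170 in edgeR, 1234 with only the groups compared, 336 without the egg-rich libraries and 1391 with the replicate block. Genotype in uninjured cord (0) gave 84 in DESeq2, 93 with only the groups compared, 6 without the egg-rich libraries and 179 with the replicate block. Genotype at 1 wpi (51) gave 0 with TMM and in edgeR, where 426 and 461 genes had an unadjusted p under 0.05, 17 unfiltered, 148 in DESeq2 and 231 with only the groups compared. The interaction (108) gave 36 with TMM, 63 unfiltered, 0 in edgeR (785 at an unadjusted p under 0.05) and 222 in DESeq2. The target list in mutants (15) gave 6 with TMM, 4 in edgeR, 23 with only the groups compared, 8 without the egg-rich libraries and 25 with the replicate block. With 1 library left out these 6 counts ran from 57 to 3834, 56 to 1751, 0 to 825, 0 to 142, 0 to 350 and 2 to 31. The cause was not tested.

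Without the egg-rich libraries these values changed sign: genotype in uninjured cord for nr3c1 (-0.10), klf9 (-0.17) and hsd11b2 (0.37), genotype at 1 wpi for tsc22d3 (-0.11), and the interaction for nr3c1 (0.18) and hsd11b2 (-0.33). With 1 library left out, genotype in uninjured cord ran from -0.095 to 1.64 for nr3c1, -0.17 to 0.70 for klf9 and -0.60 to 0.38 for hsd11b2; genotype at 1 wpi from -0.056 to 0.39 for fkbp5 and -0.11 to 0.22 for tsc22d3; and the interaction from -1.30 to 0.44 for nr3c1, -0.30 to 0.043 for tsc22d3, -0.17 to 0.70 for klf9 and -0.28 to 0.70 for hsd11b2. Libraries that share a number deviated together (r = 0.299, 0.213 and 0.199 between groups), but only 2 numbers are shared and no label ties them, so the block is given here only. With it, pck1 passed in mutants (adjusted p = 0.00940) and no other of the 7 genes gained or lost a call in mutants; it could not be fitted where a group lacks a shared number. With 2 libraries a group, differences of scarce genes such as nr3c2 and pck1 were not resolved at this depth.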
